A study of Mus musculus with 6 samples.

Results

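Macrophages can fuse with each other into multinucleated giant cells, and IL-4 is a cytokine known to drive this in culture. Osteoclasts, the bone-resorbing cells of the same lineage, form by a related process under M-CSF and RANK ligand. Both use the multi-pass membrane proteins DC-STAMP and OC-STAMP, adhesion proteins that hold neighbouring cells together, and the DAP12 adaptor, which passes signals from receptors such as TREM2 to the kinase SYK. In osteoclasts the transcription factor NFATc1 then turns on the proton pump subunit ATP6V0D2, the acid phosphatase TRAP and the collagen-degrading protease cathepsin K.

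The 10 genes described here are those for OC-STAMP (*Ocstamp*), DC-STAMP (*Dcstamp*), E-cadherin (*Cdh1*), claudin-11 (*Cldn11*), TREM2 (*Trem2*), DAP12 (*Tyrobp*), NFATc1 (*Nfatc1*), ATP6V0D2 (*Atp6v0d2*), TRAP (*Acp5*) and cathepsin K (*Ctsk*). They were picked by name for these roles, with earlier results of these data known, and all 10 were found among the 24445 genes of the count table. RNA was sequenced from bone marrow-derived macrophages (BMDMs) of female mice, in 3 AclyM-KO and 3 control (Ctrl) libraries. The floxed mice are described as C57Bl/6J. AclyM-KO cells carry loxP sites around exon 9 of the gene for ATP citrate lyase (*Acly*) and a Cre under *Lyz2* control, which is active in the myeloid lineage in general and not in macrophages alone. Ctrl cells carry the same floxed alleles without Cre. All cultures were differentiated over 7 days with L929-conditioned medium, and all libraries come from cells that then received 24 h of IL-4 at 100 U/mL. The mice's ages are not given for these cultures, and no RANK ligand is named in the culture protocol. Untreated BMDMs were not analysed here, so no value below shows what IL-4 itself did.

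Between 12151975 and 15587283 reads per library were counted on the rows used. *Acly* itself was at 332, 321 and 350 CPM (counts scaled to library size) in the Ctrl libraries and at 146, 134 and 136 CPM in the AclyM-KO libraries. The methods call the replicates biological, while a figure legend calls them technical replicates of pooled mice. The p-values therefore measure the spread between these libraries, which may be technical. Genes were tested with edgeR's quasi-likelihood method over 12023 genes, and "rose" or "fell" is used for an adjusted p under 0.05. A gene is "called" when its log2 fold change, AclyM-KO over Ctrl, also lies beyond 0.58 in either direction.

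Cell identity was checked with marker lists. The 10 macrophage markers summed to 19030 to 19990 CPM in Ctrl and 16400 to 16680 CPM in AclyM-KO, where 4 of 9 tested fell and 1 rose. Most of this difference lay in *Lyz2*, the gene whose locus drives Cre, at 6595 ± 515 CPM in Ctrl and 4142 ± 119.9 CPM in AclyM-KO (SD, n = 3 each). Without *Lyz2* the sums overlapped, at 12460 to 13030 CPM in Ctrl and 12180 to 12620 CPM in AclyM-KO. Apart from *Lyz2*, the markers that fell were *Mertk* (log2 fold change -0.73), *Itgam* (-0.28) and *Csf1r* (-0.20). *Adgre1* rose (0.33), so overlapping sums do not mean that each marker was unchanged. *Cx3cr1* had no count in any library. Of the 9 osteoclast-defining markers, the calcitonin receptor gene *Calcr* had 0 counts in every library, and the receptor gene *Oscar* had 0 to 1 counts per Ctrl library and 1 to 3 per AclyM-KO library. A count of 0 allows up to 3 counts, or 0.193 to 0.245 CPM depending on the library. The summed level of this list was 1466 to 1591 CPM in Ctrl and 1524 to 1564 CPM in AclyM-KO, and 4 of 6 tested fell and 1 rose. Most of the sum came from *Tcirg1*, *Clcn7* and *Itgb3*, which macrophages also express. Summed neutrophil markers were 17.1 to 19.3 CPM in Ctrl and 24.9 to 26.7 CPM in AclyM-KO, with 2 of 4 tested genes higher. Dendritic cell markers were at 24.1 to 28.9 and 23.4 to 27.4 CPM, with 2 of 4 tested higher and 1 lower. Stromal and osteoblast markers (6.42 to 10.1 and 7.37 to 7.88 CPM), epithelial markers (0.203 to 0.683 and 0.614 to 0.708 CPM) and lymphocyte markers (0.245 to 1.22 and 0.478 to 0.836 CPM) were low in both groups. The part of the neutrophil, dendritic and macrophage marker shifts in the results below was not tested.

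The 10 genes did not move as one block. In AclyM-KO, 8 fell and 2 rose, against 12.6% of all genes tested that fell and 12.4% that rose. Since the genes were chosen with earlier results known, this count is a description and not evidence about the group. The fusion gene *Ocstamp* fell most, *Ctsk* rose to about double its Ctrl level, and *Trem2* rose while its adaptor gene *Tyrobp* fell. With the fold change limit, 3 were called lower (*Ocstamp*, *Cdh1*, *Acp5*) and 1 higher (*Ctsk*), where 2.57% and 2.98% of all genes were called. For all 10 genes the Ctrl and AclyM-KO libraries did not overlap in CPM, which held for 19.8% of all genes in the lower and 20.5% in the higher direction. The exact two-sided permutation test gave p = 0.10 for each, the smallest that 3 against 3 libraries allow. The median log2 fold change of the 10 was -0.31, beside 0.0014 over all genes tested. Because the cultures were sequenced in bulk, fewer cells that express a gene cannot be told apart from less RNA per cell.

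**Figure D1:**
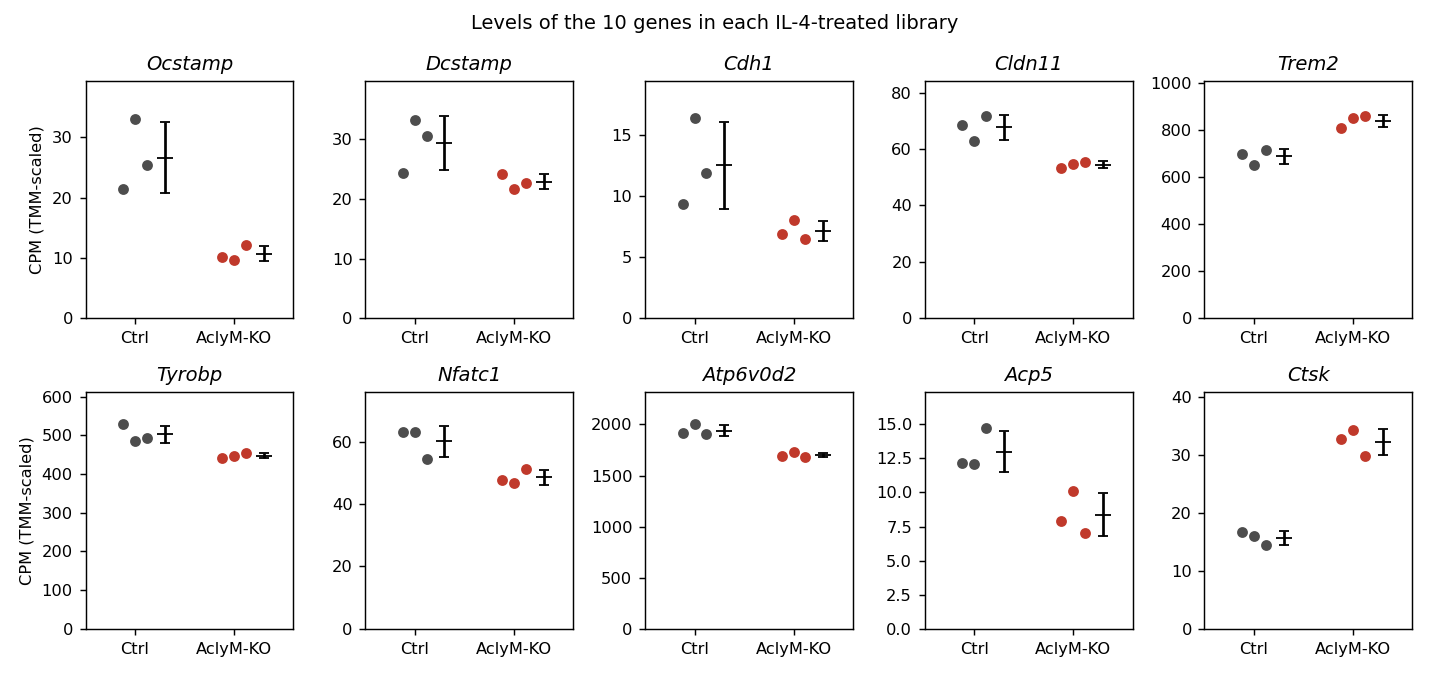
CPM of each of the 10 genes (vertical axes from 0, one scale per gene) in the 3 Ctrl libraries (grey points) and the 3 AclyM-KO libraries (red points), with the mean and SD of each group as black bars. In every panel the groups are apart, with AclyM-KO higher for *Trem2* and *Ctsk* and lower for the other 8 genes.

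Levels of different genes were compared per kilobase of transcript. In Ctrl, *Tyrobp* (891 ± 40.5 CPM per kb, SD, n = 3), *Atp6v0d2* (776 ± 21.4) and *Trem2* (651 ± 31.7) were far more abundant than the rest, in that order in all 3 libraries. *Cldn11* followed at 36.2 ± 2.41 CPM per kb. *Dcstamp* (14.7 ± 2.28), *Ocstamp* (13.6 ± 3.02) and *Nfatc1* (13.1 ± 1.08) were neighbours whose libraries overlapped, as did those of *Ctsk* (10.4 ± 0.765) and *Acp5* (9.59 ± 1.10). *Cdh1* was lowest at 2.82 ± 0.805 CPM per kb. In AclyM-KO the order changed. *Trem2* (795 ± 24.7 CPM per kb) and *Tyrobp* (793 ± 10.6) overlapped at the top, *Ctsk* (19.7 to 22.7 in the 3 libraries) stood above all libraries of *Dcstamp* (11.5 ± 0.628), and *Ocstamp* (5.47 ± 0.650) dropped to the range of *Acp5* (6.16 ± 1.16).

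The genes for the fusion proteins come first. *Ocstamp* lies on the minus strand of chromosome 2 (GRCm38, 165393760 to 165400405). It was at 21.4, 33.0 and 25.5 CPM in Ctrl replicates 1, 2 and 3 and at 10.2, 9.72 and 12.1 CPM in AclyM-KO. Even the highest AclyM-KO library was well under the lowest Ctrl library, although Ctrl itself spread widely around its mean. The AclyM-KO mean was 40.1% of the Ctrl mean, a log2 fold change of -1.31 (standard error 0.14, 95% interval -1.61 to -1.01, edgeR adjusted p = 8.17e-06).

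*Dcstamp*, on the plus strand of chromosome 15 from 39745930 to 39760938, is the better known partner of *Ocstamp* and is needed for fusion of both osteoclasts and giant cells. It was at 24.4, 33.3 and 30.6 CPM in Ctrl and at 24.2, 21.8 and 22.6 CPM in AclyM-KO. Ctrl replicate 1 and AclyM-KO replicate 1 were nearly equal, so the groups were only just apart. The fall was modest, at -0.36 (standard error 0.10, edgeR adjusted p = 0.0180). The test was no longer passed without Ctrl replicate 2 (-0.27) or 3 (-0.33), or without AclyM-KO replicate 2 (-0.32) or 3 (-0.35), and the gene's 5 RefSeq transcripts had identical counts.

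Within a library, the ratio of *Ocstamp* to *Dcstamp* counts compares the fusion genes without any scaling between libraries. It was 0.878, 0.993 and 0.834 in Ctrl and 0.423, 0.447 and 0.536 in AclyM-KO. *Ocstamp* thus had somewhat fewer counts than *Dcstamp* in Ctrl, with nearly equal counts only in replicate 2, and far fewer in AclyM-KO. The difference in mean log2 ratio was -0.95, with no overlap between groups (exact two-sided permutation test, p = 0.10).

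The adhesion genes fell as well. E-cadherin, encoded by *Cdh1* on chromosome 8, joins neighbouring cells by binding to itself and is a known IL-4-induced surface protein of macrophages that takes part in their fusion. *Cdh1* counts were 138, 200 and 156 in Ctrl and 101, 125 and 94 in AclyM-KO, which corresponds to 9.32, 16.4 and 11.8 CPM against 6.89, 8.04 and 6.44 CPM. The AclyM-KO mean was 57.0% of Ctrl. Ctrl replicate 2 was the highest library for *Cdh1*, *Ocstamp* and *Dcstamp*, and also for *Mmp9*, a matrix protease gene listed below. It was the lowest Ctrl library for *Trem2* and *Tyrobp*, and it had the fewest reads of all libraries (12151975). Across genes it differed more from Ctrl replicates 1 and 3 (chi-square per gene 7.55 and 6.34) than those did from each other (4.68). Without Ctrl replicate 2 the log2 fold change of *Cdh1* was -0.57, inside the fold change limit, and that of *Ocstamp* was -1.14.

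*Cldn11* encodes a tight junction protein best known from myelin and testis and is used as a marker of IL-4-treated macrophages. It was at 68.7, 62.7 and 71.6 CPM in Ctrl and at 53.1, 54.6 and 55.5 CPM in AclyM-KO. The AclyM-KO libraries lay within a narrow range below all Ctrl libraries, and their mean was 80.5% of Ctrl. The study picked *Cdh1* and *Cldn11* as IL-4-induced genes partly from these Ctrl libraries, so their direction is not independent evidence.

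TREM2 binds lipids and other ligands at the cell surface and has no signalling motif of its own. It pairs with DAP12, whose cytoplasmic tail carries the motif that recruits SYK. *Trem2*, on chromosome 17 (plus strand, 48346401 to 48354147), was at 698, 650 and 714 CPM in Ctrl and at 810, 851 and 858 CPM in AclyM-KO. Every AclyM-KO library was above every Ctrl library, with a mean of 122% of Ctrl and a log2 fold change of 0.29 (standard error 0.0453, 95% interval 0.19 to 0.39, edgeR adjusted p = 0.000263). *Tyrobp*, on chromosome 7 (plus strand, 30413760 to 30417585), went the other way, from 528, 485 and 494 CPM to 442, 447 and 454 CPM. This fall to 89.0% was small (-0.17, standard error 0.0458, edgeR adjusted p = 0.0144), and the test was not passed without Ctrl replicate 1 (-0.13), AclyM-KO replicate 1 (-0.16) or AclyM-KO replicate 2 (-0.17).

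The ratio of *Trem2* to *Tyrobp* counts was 1.32, 1.34 and 1.45 in Ctrl and 1.83, 1.90 and 1.89 in AclyM-KO. Receptor RNA was therefore higher relative to adaptor RNA in every AclyM-KO library than in every Ctrl library, by 0.46 in mean log2 ratio (exact two-sided permutation test, p = 0.10).

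NFATc1 is the transcription factor that RANK signalling raises in osteoclast precursors. *Nfatc1*, on the minus strand of chromosome 18 from 80606205 to 80713071, was at 63.0, 63.1 and 54.4 CPM in Ctrl and at 47.8, 46.8 and 51.2 CPM in AclyM-KO. The closest libraries of the groups, Ctrl replicate 3 and AclyM-KO replicate 3, were 54.4 and 51.2 CPM. The AclyM-KO mean was 80.8% of Ctrl (-0.31, standard error 0.0670, edgeR adjusted p = 0.00332). Of its 6 RefSeq transcripts, 2 held 60.9% and 61.1% of the counts of the one used. For one of these the share was 58.2%, 61.5% and 60.5% in Ctrl and 62.3%, 63.4% and 61.6% in AclyM-KO, so that the groups were only just apart (60.0% ± 1.71 and 62.4% ± 0.924, SD, n = 3 each, exact two-sided permutation test, p = 0.10).

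Its relatives differed from each other. *Nfatc2*, another calcium-regulated NFAT gene, was called lower (22.9 ± 3.16 to 13.3 ± 0.315 CPM, SD, n = 3 each, -0.78, edgeR adjusted p = 6.98e-05). *Nfatc3* showed no detectable difference (0.01, 95% interval -0.11 to 0.14, edgeR adjusted p = 0.880). The ratio of *Nfatc1* to *Nfatc2* counts was 2.69, 2.45 and 2.79 in Ctrl and 3.67, 3.55 and 3.75 in AclyM-KO. *Nfatc2* thus fell more than *Nfatc1*, and the ratio was higher in every AclyM-KO library than in every Ctrl library (0.47 in mean log2 ratio, exact two-sided permutation test, p = 0.10).

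**Figure D2:**
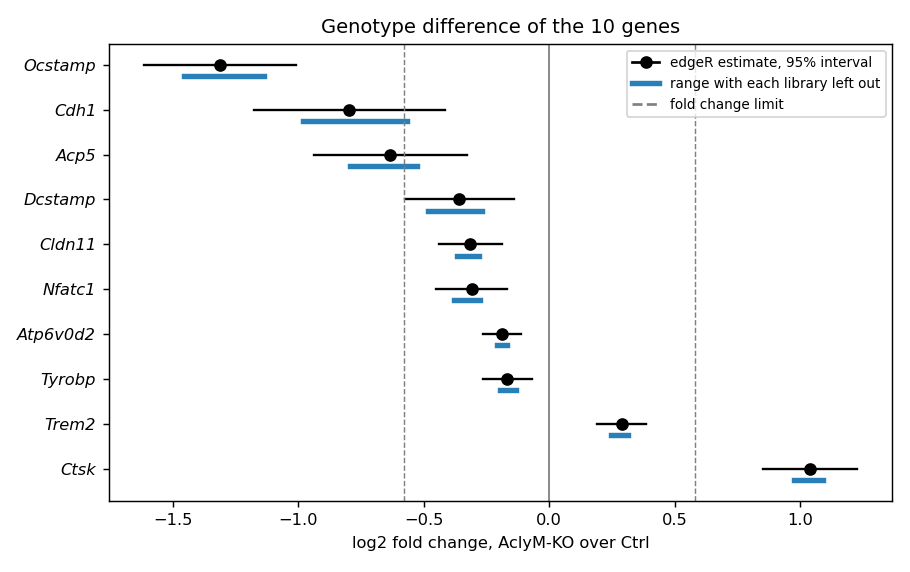
Log2 fold change of each gene (horizontal axis, AclyM-KO over Ctrl) as the edgeR estimate (black point) with its 95% interval (black line), the range of estimates with each library left out in turn (blue bar) and the fold change limit of 0.58 in both directions (dashed lines). *Ocstamp* and *Ctsk* stay beyond the limit with each library left out, while *Cdh1* and *Acp5* cross it and the other 6 genes stay inside.

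The effector genes split in direction. *Ctsk* lies on the plus strand of chromosome 3 from 95499256 to 95509362, and its protein is a lysosomal cysteine protease that osteoclasts secrete to degrade bone collagen. Its counts were 247, 195 and 190 in Ctrl and 479, 533 and 435 in AclyM-KO, or 16.7, 16.0 and 14.4 CPM against 32.7, 34.3 and 29.8 CPM. The lowest AclyM-KO library held far more *Ctsk* than the highest Ctrl library. The log2 fold change was 1.04 (standard error 0.0878, 95% interval 0.85 to 1.23, edgeR adjusted p = 6.70e-07), and removing single libraries gave values between 0.98 and 1.09.

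*Acp5*, on the minus strand of chromosome 9 from 22126727 to 22135711, encodes TRAP, the enzyme whose histochemical stain identifies osteoclasts. Its counts in the 3 Ctrl libraries were 180, 148 and 194 and those in the AclyM-KO libraries 116, 157 and 103, or 12.2, 12.1 and 14.7 CPM against 7.91, 10.1 and 7.06 CPM. AclyM-KO replicate 2 came closest to Ctrl. The AclyM-KO mean was 64.3% of Ctrl (-0.63, standard error 0.14, edgeR adjusted p = 0.00433). The gene kept passing the test with each library left out, but lay inside the fold change limit without Ctrl replicate 3 (-0.54) or AclyM-KO replicate 3 (-0.53). Exons of *6530413G14Rik* on the other strand cover 10.1% of the exonic bases of *Acp5*, and strand appears not to have been used in counting.

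*Atp6v0d2*, on the minus strand of chromosome 4 from 19876841 to 19922605, encodes the d2 isoform of a stalk subunit of the vacuolar proton pump, which is enriched in osteoclasts and needed for their fusion. At 1912, 2001 and 1905 CPM in Ctrl and 1695, 1728 and 1682 CPM in AclyM-KO it had more reads than any other of the 10 genes. Its fall to 87.8% was small beside that of *Ocstamp* but exceeded the spread of the libraries (-0.19, standard error 0.0350, edgeR adjusted p = 0.00107).

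*Atp6v0d1* encodes the d1 isoform found in most cells, and it rose from 303 ± 15.6 to 347 ± 1.06 CPM (SD, n = 3 each, 0.20, edgeR adjusted p = 0.00793). The ratio of *Atp6v0d2* to *Atp6v0d1* was 6.21, 7.02 and 6.04 in Ctrl and 4.90, 4.97 and 4.85 in AclyM-KO, a shift of -0.39 in mean log2 ratio (exact two-sided permutation test, p = 0.10). *Ctsk* was likewise compared with *Ctsb*, an abundant cathepsin gene that rose slightly (0.13, edgeR adjusted p = 0.0120). There were 0.742, 0.794 and 0.644 *Ctsk* counts per 1000 *Ctsb* counts in Ctrl and 1.39, 1.46 and 1.24 in AclyM-KO, so the rise of *Ctsk* was not shared in size by *Ctsb* (0.91 in mean log2 ratio, exact two-sided permutation test, p = 0.10).

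**Figure D3:**
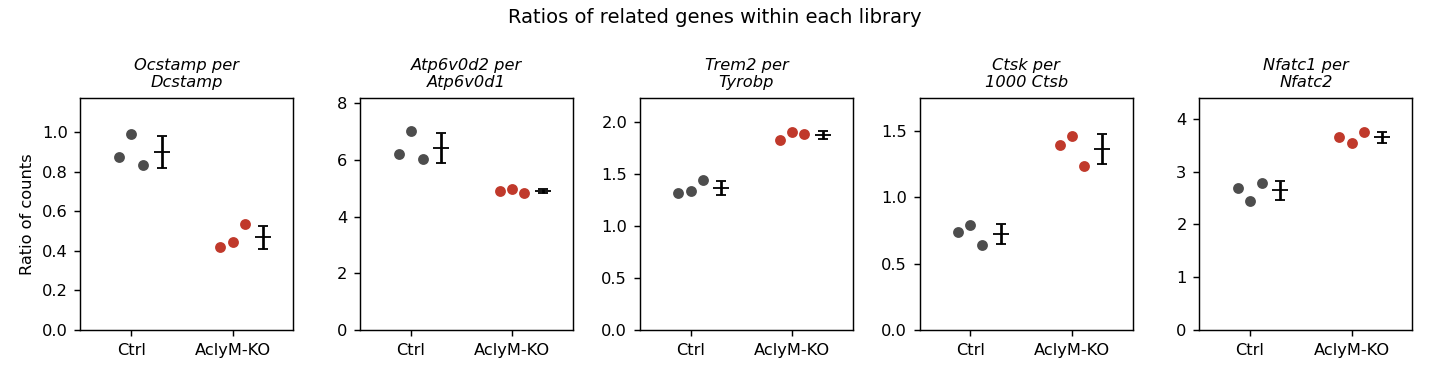
Ratio of the counts of related genes within each library (vertical axes from 0, *Ctsk* per 1000 *Ctsb* counts) for Ctrl (grey) and AclyM-KO (red), with mean and SD as black bars. The groups are apart in all 5 panels, with AclyM-KO lower for *Ocstamp* to *Dcstamp* and *Atp6v0d2* to *Atp6v0d1* and higher for the other 3 ratios.

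The sequence before the transcription start is shown for the effector genes that moved in opposite directions, *Ctsk* and *Acp5*, and for *Trem2*, which rose with *Ctsk*. Windows of 250 bases are from RefSeq on GRCm38.p6, 5′ to 3′ on the gene's strand, and end at the base before the RefSeq start that the table uses. For *Ctsk* and *Acp5* that start differs from the GENCODE 5′ end given above, and for *Trem2* both are the same base. They are chr3:95498960-95499209 (plus strand) for *Ctsk*, chr9:22135747-22135996 (minus strand) for *Acp5* and chr17:48346151-48346400 (plus strand) for *Trem2*. For *Acp5*, the window nearest to the gene's GENCODE 5′ end was taken of 3 listed. Capitals mark matches to the motifs named in the next paragraph.
Ctsk: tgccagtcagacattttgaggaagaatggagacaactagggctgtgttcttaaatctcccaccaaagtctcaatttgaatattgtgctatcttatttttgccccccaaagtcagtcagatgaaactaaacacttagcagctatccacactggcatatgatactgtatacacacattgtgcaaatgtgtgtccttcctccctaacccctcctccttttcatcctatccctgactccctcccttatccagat
Acp5: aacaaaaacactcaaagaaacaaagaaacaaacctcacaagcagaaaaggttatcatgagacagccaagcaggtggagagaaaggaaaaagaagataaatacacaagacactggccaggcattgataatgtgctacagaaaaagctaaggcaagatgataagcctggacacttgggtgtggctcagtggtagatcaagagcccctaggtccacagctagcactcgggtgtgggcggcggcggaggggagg
Trem2: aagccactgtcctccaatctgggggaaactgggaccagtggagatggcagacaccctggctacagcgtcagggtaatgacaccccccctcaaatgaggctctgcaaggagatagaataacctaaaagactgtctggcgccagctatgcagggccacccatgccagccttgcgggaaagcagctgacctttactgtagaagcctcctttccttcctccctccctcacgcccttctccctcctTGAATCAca

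Of the 10 genes, 4 were matched to this table by symbol, the fourth being *Cldn11*. *Dcstamp*, *Ocstamp*, *Atp6v0d2*, *Cdh1* and *Tyrobp* were not, and *Nfatc1* was left out before the search. The windows were searched on both strands for the STAT6 motif TTCNNNNGAA, the AP-1 motif TGANTCA, the NFAT core TGGAAA and the E-boxes CACGTG and CATGTG bound by the osteoclast factor MITF. The only match was 1 AP-1 motif in the *Trem2* window, beginning at position -9 from the start, which overlapped no other motif. It reads TGAATCA, with A at the open base N, where the usual AP-1 site has G or C. Among all 32851 windows of this length, 5.85% held the STAT6 motif, 6.75% the AP-1 motif, 18.6% the NFAT core, 6.02% CACGTG and 12.3% CATGTG. The share of G and C was 43.2% for *Ctsk*, 48.0% for *Acp5* and 56.0% for *Trem2*, beside a median of 52.4% over all windows.

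The remaining genes of each process were taken from lists written out by role, with earlier results known. Over all genes tested, 12.6% fell and 12.4% rose, while 2.57% were called lower and 2.98% higher. Of 27 other fusion genes, 10 fell, 4 rose and 13 did not pass the test (median log2 fold change -0.0085). The lists share some genes. The largest falls were in the matrix protease gene *Mmp9* (61.8 ± 21.3 to 34.1 ± 4.51 CPM, SD, n = 3 each, -0.85), the tetraspanin gene *Cd81* (-0.42), the integrin gene *Itgax* (-0.34) and the ATP-gated channel gene *P2rx7* (-0.31) (all edgeR adjusted p-values up to 0.00172). The scavenger receptor gene *Cd36*, which takes part in macrophage fusion, rose from 1972 ± 188 to 2556 ± 115 CPM (SD, n = 3 each, 0.37, edgeR adjusted p = 0.000148). The GTPase gene *Rac1* (0.23), *Sbno2* (0.21) and *Sirpa* (0.14) rose as well. Without AclyM-KO replicate 3, only 2 genes of this list rose.

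In the list for TREM2 and DAP12 signalling, 11 of 26 genes fell and 1 rose, beside 12.6% and 12.4% of all genes tested. None was called (median -0.12). Not every gene of this list acts downstream of these proteins. Genes that fell included the kinase gene *Src* (-0.52), the ubiquitin ligase gene *Cbl* (-0.38) and the kinase gene *Tec* (-0.32) (all edgeR adjusted p-values up to 0.00142). *Syk* itself was at 454 ± 12.6 and 412 ± 7.93 CPM (SD, n = 3 each, -0.14, edgeR adjusted p = 0.0287). Without AclyM-KO replicate 1 or without AclyM-KO replicate 2, 6 genes of this list fell. *Hcst*, which encodes DAP10, an adaptor related to DAP12, was the gene that rose (0.50, edgeR adjusted p = 0.0314). It had 48 to 65 counts in Ctrl and 85 to 95 in AclyM-KO, and lost the test when any one of the 6 libraries was removed, and with DESeq2.

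A further list held 25 genes for receptors linked to DAP12 or the related FcRγ chain, or for relatives of such receptors. Not all of the listed receptors are known to signal through these adaptors. Of the 25 genes, 16 were tested, of which 8 fell and 4 rose (median -0.16). The Fc receptor gene *Fcgr4* (-0.67) and the TREM family gene *Treml2* (-0.66) were called lower. The C-type lectin genes *Clec4e* (0.70) and *Clec4d* (0.60), whose receptors recognise mycobacterial and fungal glycolipids, were called higher (all edgeR adjusted p-values up to 0.00459 for these 4). *Pira2* (0.46) and *Pirb* (0.18) also rose, but belong to a family of near-identical genes among which reads may be misassigned.

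In the RANK and M-CSF pathway with its transcription factors, 46 of 50 genes were tested, of which 13 fell and 3 rose (median -0.056). The RANK receptor gene *Tnfrsf11a* fell from 66.6 ± 4.39 to 49.8 ± 1.49 CPM (SD, n = 3 each, -0.42, edgeR adjusted p = 0.000138). The M-CSF receptor gene *Csf1r* fell slightly (-0.20, edgeR adjusted p = 0.00366). Besides *Nfatc2*, the largest falls were in *Id2* (-0.52), *Prdm1* (-0.45) and *Irf8* (-0.43). These do not share one role, since *Id2* and *Irf8* are known to restrain osteoclast formation while the product of *Prdm1* represses such inhibitors. *Mitf*, whose product activates *Acp5* and *Ctsk* in osteoclasts, rose by 0.21 (141 ± 2.61 to 163 ± 4.99 CPM, SD, n = 3 each, edgeR adjusted p = 0.00585). *Lgr4*, a second receptor for RANK ligand, was called higher (1.78, edgeR adjusted p = 0.00153) on 21, 19 and 4 counts in Ctrl and 65, 60 and 44 in AclyM-KO. With upper quartile scaling, 5 genes of this list rose. The gene for RANK ligand, *Tnfsf11*, had 0 to 2 counts per library.

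Of 27 other osteoclast resorption genes, 23 were tested, of which 9 fell and 3 rose (median -0.076). The membrane-bound collagenase gene *Mmp14* had the largest fall, with 16.8 ± 2.66 CPM in Ctrl and 6.93 ± 1.38 CPM in AclyM-KO (SD, n = 3 each, -1.27, edgeR adjusted p = 2.20e-05). The carbonic anhydrase gene *Car2*, which supplies protons for acid secretion, had 115 to 149 counts in Ctrl and 100 to 106 in AclyM-KO (-0.51, edgeR adjusted p = 0.0299). *Itgb3*, the β3 chain of the osteoclast's vitronectin receptor, rose from 386 ± 44.3 to 516 ± 18.1 CPM (SD, n = 3 each, 0.42, edgeR adjusted p = 0.000262). The other genes that rose were *Ctsl* (0.35) and *Ctsb* (0.13).

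Of the other proton pump subunits, 18 of 24 were tested, of which 7 rose and 2 fell (median 0.11), and none was called. *Atp6v0a1* rose most (1979 ± 118 to 2863 ± 31.2 CPM, SD, n = 3 each, 0.53, edgeR adjusted p = 2.40e-07), followed by *Atp6v0b* (0.34). *Tcirg1*, which encodes the a3 subunit that osteoclasts use for resorption, fell (-0.24, edgeR adjusted p = 0.00108), as did *Atp6v1b2* (-0.16). Without AclyM-KO replicate 1, 4 subunit genes rose.

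Other cathepsins, their inhibitors and acid phosphatases were mixed, with 7 of 17 tested genes lower and 5 higher (median -0.088). *Ctsf* (-0.90), *Ctsh* (-0.67) and the acid phosphatase gene *Acpp* (-0.61) were called lower (all edgeR adjusted p-values up to 0.0153). None was called higher, and the largest rises were in *Ctsc* (0.41) and *Ctsl* (0.35). *Ctss*, an abundant macrophage cathepsin gene, fell by 0.17 on the log2 scale. Without AclyM-KO replicate 1, 4 genes of this list fell.

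Junction genes other than *Cdh1* and *Cldn11* were mostly below the filter on low counts. Of 22 cadherins, catenins and E-cadherin regulators, 11 were tested, of which 1 fell and 4 rose (median 0.053). *Jup*, the gene for plakoglobin, which links E-cadherin to the cytoskeleton, was called lower (10.8 ± 0.730 to 6.52 ± 0.817 CPM, SD, n = 3 each, -0.72, edgeR adjusted p = 0.00128). The genes that rose included the catenin genes *Ctnna1* (0.20) and *Ctnnb1* (0.13), and the others that rose were listed as E-cadherin regulators (all edgeR adjusted p-values up to 0.0446). Genes that rose numbered 2 without Ctrl replicate 3 or AclyM-KO replicate 2 and 1 without AclyM-KO replicate 1, and genes that fell numbered 2 without Ctrl replicate 1 or 2 and with scaling by library totals. Of the claudins and tight junction genes, 5 of 21 were tested and only *Tjp3* fell (67, 78 and 66 counts in Ctrl, 41, 38 and 45 in AclyM-KO, -0.93, edgeR adjusted p = 0.00314). Without Ctrl replicate 2, 2 of these fell.

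**Figure D4:**
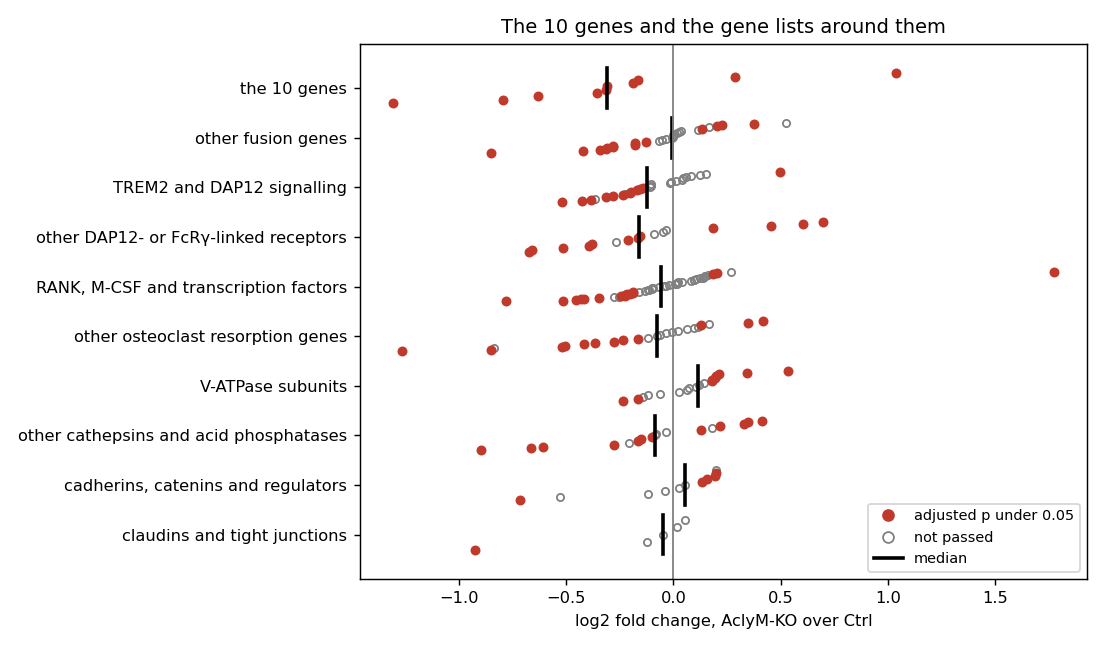
Log2 fold change (horizontal axis, AclyM-KO over Ctrl) of every tested gene in the 10 genes and in each gene list, with filled points for an adjusted p under 0.05, open points for genes that did not pass, and a black bar for the median. The medians lie between -0.31 for the 10 genes and 0.11 for the V-ATPase subunits, and every list but the claudins holds genes that moved in both directions.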

How the data were processed

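The authors made strand-specific mRNA libraries (KAPA kit) and aligned reads to mm10 with STAR 2.5.2b (submitters' processing notes). The program that counted reads is not given in the sources used here. The authors deposited raw read counts per RefSeq transcript (35745 rows, all 6 columns used). Rows were paired with symbols through RefSeq for GRCm38.p6 (35440) and GENCODE M21 (188). The 117 rows without a symbol, 0.370% to 1.38% of counts, were left out. Per gene, the row with the highest total was kept. Counts were tested with edgeR 4.0.16 (filterByExpr, TMM, quasi-likelihood F-test, Benjamini-Hochberg adjustment over 12023 genes) in R 4.3.3. CPM values use TMM-scaled library sizes. Lengths are the GENCODE exonic bases inside the RefSeq gene bounds, and positions are GENCODE M21 on GRCm38, the same assembly as mm10. On simulated counts with 200 genes changed by a log2 size of 1 among 11928, 90.0% were recovered and 7 unchanged genes passed. The same numbers of replicates in each group do not pair the libraries.

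The 10 genes and the gene lists were chosen with earlier results of these data known. Genes named from the lists are those with the largest changes that passed the test, up to 4 per direction, and fixed partners of the 10 genes. *Tnfsf11*, *Lyz2*, *Clcn7*, *Cx3cr1*, *Mertk*, *Itgam* and *Adgre1* were named after their values were seen, and the macrophage marker sum without *Lyz2* was added then. *Cldn25* was not analysed here. Not every gene this rule allows is named, and 1 is not reported here. No library repeated another of its group within sampling noise (chi-square per gene 2.32 to 7.55). Strand appears not to have been used in counting, since *Xist* and *Tsix* had near-identical counts, but this was inferred from that gene pair only. Alternatives were DESeq2 1.42.0, limma-voom (limma 3.58.1), other scalings, filters, limits, summed rows, thinned counts, a replicate block and the removal of each library.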

Additional observations from a re-analysis of the deposited data

How the results depend on the processing

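All 10 genes kept their direction under every alternative run, and all passed the test with DESeq2, limma-voom, 3 other scalings, 2 other filters, summed transcript rows, thinned libraries and the replicate block. With a log2 limit of 1, 1 of the 10 was called lower (*Ocstamp*) and 1 higher (*Ctsk*), so that *Cdh1* and *Acp5* lost their call, with 80 lower and 145 higher over all genes. With glmTreat against 0.58, 1 of the 10 was called lower and 1 higher, with 41 lower and 77 higher over all genes. When single libraries were removed, *Dcstamp* had log2 fold changes of -0.48 to -0.27 and *Tyrobp* of -0.20 to -0.13, and both lost the test in some of these fits. Of the 10, 6 to 7 then fell and 2 to 3 were called lower. These fits tested 12146 to 12189 genes and had fewer samples. Over all genes in them, 972 to 1548 fell, fewest without AclyM-KO replicate 2, and 271 to 317 were called lower. With the replicate number as a block (replicate block), 1329 genes fell and 1315 rose, and 8 of the 10 genes fell and 2 rose (*Ocstamp* -1.31, *Ctsk* 1.04). In the TREM2 and DAP12 signalling list, 7 genes then fell instead of 11. Correlations of same-numbered libraries' deviations from their group means were -0.0651, 0.0498 and -0.0314, so the numbers were not taken as pairs. Of the other values, for gene lists and ratios, 300 stayed and 23 moved, none of them reversed; the cause was not tested. Other scalings moved the median of all genes to between -0.018 and 0.006. Genes with few counts, such as *Lgr4* and *Hcst*, have the least precision at this depth.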
